A study of Mus musculus with 6 samples.

Results

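The 10 genes described here encode transcription factors that specify the embryonic gut tube and the liver bud: *Foxa1*, *Foxa2*, *Foxa3*, *Hhex*, *Prox1*, *Onecut1*, *Hnf4a*, *Nkx2-1*, *Pdx1* and *Sox17*. They were taken by symbol from a raw count table of 55401 genes, and all 10 were found. The samples were whole mouse embryos at E10.5 (E counts embryonic days), in 3 libraries of wild-type (WT) littermates and 3 libraries of 5C embryos. The methods describe pools of 2 male embryos, 1 pool a library, on a C57BL/6J background. The 5C genotype has 5 tandem copies of *Mir483*, a microRNA gene, targeted into the *Igf2* locus of ES cells and passed on by chimeric males, and WT embryos have no such array. Of the arrays made, only that of 5 copies passed through the germline. These embryos arrest in development and all are resorbed within days of this stage, so both genotypes were sampled before that loss was complete. The comparison asks whether excess *Mir483* was accompanied by other levels of the factors that build the foregut and its buds.

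In the mouse embryo, definitive endoderm lines the gut tube, and its ventral foregut gives rise to the liver, ventral pancreas, thyroid and lung. FOXA proteins open compacted chromatin at endodermal enhancers, HHEX and PROX1 let hepatic cells form and leave the bud, and ONECUT1 and HNF4A drive the hepatocyte programme. Many of these factors also act elsewhere in an embryo of this age. FOXA1 and FOXA2 mark the floor plate, PROX1 the lens, lymphatic endothelium and parts of the nervous system, ONECUT1 motor neurons, NKX2-1 the ventral forebrain, and SOX17 arterial endothelium. HNF4A and FOXA3 are also made by the visceral endoderm of the yolk sac, the extra-embryonic layer that surrounds the embryo. In bulk RNA, fewer cells of a type and less RNA per cell cannot be told apart.

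The mature microRNAs made from *Mir483* are shown with the seed (bases 2 to 8) in capitals.
miR-483-3p: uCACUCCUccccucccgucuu
miR-483-5p: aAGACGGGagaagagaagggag
Both lie on the minus strand of chromosome 7 (GRCm38; RefSeq sequences), miR-483-3p at chr7:142654932-142654952 and miR-483-5p at chr7:142654968-142654989. The 3′ UTR of the longest coding transcript of each of the 10 genes was searched for the letters that pair with these seeds, AGGAGTG for miR-483-3p and CCCGTCT for miR-483-5p. Only *Onecut1* held a match, 1 for miR-483-3p at chr9:74890116-74890122 on the plus strand, which begins at base 518 of its 2183-base 3′ UTR. The match is in capitals within its flanking bases.
Onecut1 site: gggttgcaccatAGGAGTGtgaccaacccg
One member of 10 with a miR-483-3p match compares with 1807 of 13903 tested genes that had an annotated 3′ UTR, or 13.0%. For miR-483-5p it was 0 members of 10 against 502 genes, or 3.61%. A match is a description of letters and not a site known to be used.

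The promoters of *Hnf4a* and *Foxa3* are shown because these were the 2 members whose levels moved together and far more widely than the rest. Each window runs from 250 bases before to 50 bases after an annotated start (RefSeq, GRCm38). *Hnf4a* has an upstream start, at chr2:163506607-163506906 on the plus strand, and a downstream start, at chr2:163546905-163547204. The *Foxa3* window is chr7:19023490-19023789 on the minus strand. Capitals mark letters that match a forkhead core (TGTTTA or TGTTTG, the kind of motif FOXA proteins bind), on either strand.
Hnf4a upstream: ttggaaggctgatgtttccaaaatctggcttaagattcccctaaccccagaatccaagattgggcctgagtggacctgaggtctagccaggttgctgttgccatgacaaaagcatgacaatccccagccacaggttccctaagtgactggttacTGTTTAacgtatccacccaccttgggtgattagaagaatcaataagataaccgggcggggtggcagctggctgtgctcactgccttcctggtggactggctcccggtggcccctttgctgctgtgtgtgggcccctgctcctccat
Hnf4a downstream: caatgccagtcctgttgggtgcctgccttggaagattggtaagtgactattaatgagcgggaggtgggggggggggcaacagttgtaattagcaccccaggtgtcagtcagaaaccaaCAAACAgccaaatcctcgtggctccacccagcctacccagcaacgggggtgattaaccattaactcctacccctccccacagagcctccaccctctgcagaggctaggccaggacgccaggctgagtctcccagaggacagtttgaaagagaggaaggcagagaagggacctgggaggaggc
Foxa3: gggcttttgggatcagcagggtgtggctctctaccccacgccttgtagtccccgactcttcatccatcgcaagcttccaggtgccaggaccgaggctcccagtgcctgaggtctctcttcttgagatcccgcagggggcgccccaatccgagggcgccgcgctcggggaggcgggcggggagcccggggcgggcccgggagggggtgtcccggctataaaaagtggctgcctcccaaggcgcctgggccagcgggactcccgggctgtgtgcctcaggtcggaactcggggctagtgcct
The upstream *Hnf4a* window held 1 TGTTTA, starting 95 bases before the annotated RefSeq start of that window. The downstream window held 1 TGTTTG on the reverse strand, starting 131 bases before its own annotated start. The *Foxa3* window had 69.0% GC against 54.0% and 57.3% for the *Hnf4a* windows, and none of the searched letters. RefSeq promoters were found for 9 of the 10 members, with 13 windows in all. TGTTTA occurred in 3 of these 13 (*Prox1*, *Hnf4a*, *Foxa1*) and in 13.4% of all 32851 windows, and TGTTTG in 5 of 13 (*Prox1*, *Hnf4a*, *Nkx2-1* and both *Foxa2* windows) and in 18.2% of all windows. The letters CAAAGTCCA, an HNF4 motif, were in 0 of the 13 member windows and in 0.475% of all windows. The counts are per gene and do not separate the 2 starts of *Hnf4a*.

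Library totals lay between 6357343 and 19151368 counts, so the smallest level that 3 counts allow lay between 0.157 and 0.472 CPM (counts per 1000000 of the scaled library total). Only counting error enters these floors. *Mir483* itself had 11, 5 and 2 counts in WT and 85, 51 and 36 in 5C (log2 fold change 3.05, SE 0.36, adjusted p = 0.169 in edgeR's quasi-likelihood test), with no overlap between genotypes. Counts of 4 Y-linked genes went against the stated sex in 2 libraries, with 48 in WT replicate 2 and 1 in 5C replicate 2, against 1211 to 3612 in the other 4. *Xist*, a transcript of female cells, read 534.7, 849.4 and 692.2 CPM in the WT libraries and 494.8, 913.9 and 639.5 CPM in the 5C libraries. The other 4 therefore did not read as male alone either, and the sex of the single embryos was not tested. WT replicate 1 and, less so, 5C replicate 3 also stood apart in transcripts of endoderm. In WT replicate 1, *Lyve1* of the 10 endothelial and lymphatic genes was also high (9.29 against 1.37 and 1.75 CPM in the other WT libraries). The sum of that list was not, at 1.05 times the mean of the other WT libraries. The 15 products of hepatoblasts (the fetal liver progenitors) summed to 6278.1, 276.0 and 562.4 CPM in the WT libraries and 234.3, 233.8 and 1288.1 CPM in the 5C libraries. A list of 13 markers of yolk sac visceral endoderm summed to 1164.7, 127.4 and 182.4 CPM in the WT libraries and 114.0, 104.8 and 297.3 CPM in the 5C libraries. All 15 and all 13 of these genes were highest in WT replicate 1, and none was at 0 in all libraries, although *Apoc2* had 1 count in all. Visceral endoderm and hepatoblasts share many of these products, so the lists do not separate the 2 sources. The member counts, *Hnf4a* and the hepatic, hepatoblast and yolk sac lists are also given without 1 or both of these libraries. Other values of list genes come from all 6 libraries unless stated.

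*Hnf4a* and *Foxa3* varied several-fold between libraries of 1 genotype, the other 7 measurable genes varied far less, and *Pdx1* was close to undetected. The SD of log2 CPM over the 6 libraries was 1.56 for *Hnf4a* and 1.21 for *Foxa3*. It was 0.28 to 0.30 for *Foxa1*, *Foxa2*, *Hhex* and *Onecut1*, above the upper quartile of 0.26 over all tested genes, and 0.10 to 0.22 for *Nkx2-1*, *Prox1* and *Sox17*. No member passed the test between genotypes. Of 16784 genes tested, 0 (0%) had an adjusted p under 0.05 with a fold change over 1.5, and 0 of the 9 members tested did. The study itself reported differentially expressed genes in these embryos, with the same kind of test and the same thresholds. Why the counts differ was not tested. DESeq2 called 11 genes and limma-voom 0, and neither called a member. At an unadjusted p under 0.05 there was 1 member, *Hnf4a*, against 6.02% of all genes, or 3.47% when only genes lower in 5C are counted. The 3 values of each genotype overlapped for all 9 members, whereas they did not overlap for 11.4% of all genes. The fitted value was below 0 for 8 of the 9 members and for 50.7% of all genes, with a median log2 fold change of -0.23 over members and -0.00 over all genes. That lean rested in part on 1 library: without WT replicate 1, which leaves 8 members testable, 5 were below 0 and the median was -0.08. Without WT replicate 1 and 5C replicate 3, a choice made after the data were seen, 6 of 8 were below 0 with a median of -0.12.

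**Figure D1:**
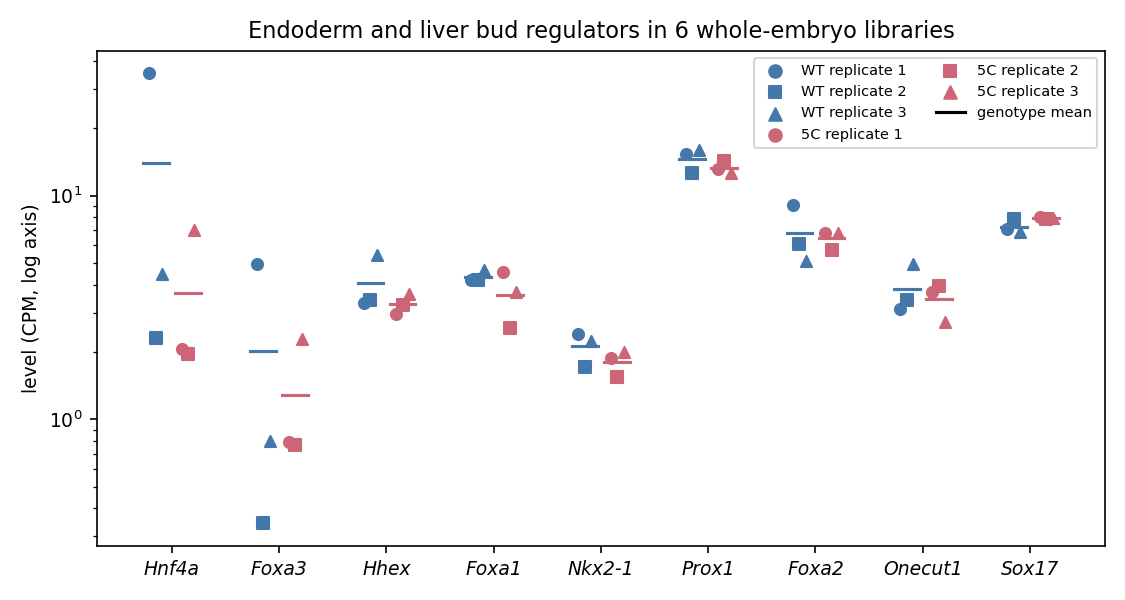
Levels of 9 of the 10 genes (CPM, log axis) in the 3 WT and 3 5C libraries, with 1 symbol per library and a bar at each genotype's mean; *Pdx1*, with 5 counts in all, is not drawn. WT replicate 1 lies at 35.3 CPM for *Hnf4a* and 4.93 CPM for *Foxa3*, far above the other WT libraries, while *Sox17* is the gene whose points lie closest together, from 6.86 to 8.0 CPM.

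Among the FOXA family, *Foxa2* (ENSMUSG00000037025; chr2:148042877-148046969, minus strand) encodes the member needed first, for the node, notochord and foregut endoderm. It read 9.13, 6.10 and 5.11 CPM in the WT libraries against 6.79, 5.72 and 6.83 CPM in the 5C libraries. WT replicate 1 was the highest library, and the 5C values lay inside the WT range. Its log2 fold change was -0.11 (SE 0.22, 95% interval -0.59 to 0.38, adjusted p = 0.927 in edgeR's quasi-likelihood test), and the sign depended on WT replicate 1, since it was 0.19 without that library (adjusted p = 0.948, edgeR). *Foxa1* (ENSMUSG00000035451; chr12:57540628-57546916, minus strand), which acts alongside *Foxa2* in hepatic competence, read 4.20, 4.21 and 4.63 CPM in the WT libraries against 4.54, 2.56 and 3.70 CPM in the 5C libraries. The 3 WT libraries were close, with 5C replicate 2 the lowest of all 6 on 30 counts. The log2 fold change of *Foxa1* was -0.25 (SE 0.23, 95% interval -0.76 to 0.26, adjusted p = 0.828, edgeR), and it was -0.07 without 5C replicate 2 and -0.46 without 5C replicate 1.

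*Foxa3* (ENSMUSG00000040891; chr7:19013284-19023538, minus strand) encodes the family member that persists in differentiated liver and gut. It read 4.93, 0.343 and 0.798 CPM in the WT libraries against 0.788, 0.768 and 2.28 CPM in the 5C libraries, from 94, 4 and 5 counts and 13, 9 and 32 counts. WT replicate 1 lay at 8.64 times the mean of the other WT libraries, and 5C replicate 3 lay at 2.93 times the mean of the other 5C libraries. The remaining 4 libraries lay below 1 CPM in both genotypes. The log2 fold change was -0.87 (SE 0.77, adjusted p = 0.821 in edgeR's quasi-likelihood test), and its 95% interval of -2.60 to 0.86 spans changes in either direction. Too few counts remained to test *Foxa3* without WT replicate 1 or without 5C replicate 3.

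The make-up of the FOXA family was compared per exon length, as shares of the summed RPKM (CPM per kilobase of exon) of the 3 genes. *Foxa2* was the main transcript in every library, with 51.1%, 64.2% and 54.7% in WT and 62.0%, 67.8% and 56.4% in 5C. *Foxa1* took 16.7%, 31.6% and 35.3% in WT and 29.6%, 21.6% and 21.8% in 5C. *Foxa3* took 32.1%, 4.21% and 9.95% in WT and 8.38%, 10.6% and 21.9% in 5C, so it exceeded *Foxa1* in WT replicate 1, came level with it in 5C replicate 3 and was the smallest part elsewhere. The genotypes overlapped for all 3 shares. With the longest coding transcript as length, the *Foxa3* share was 30.2% in WT replicate 1 and 3.87% to 20.4% in the others.

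**Figure D2:**
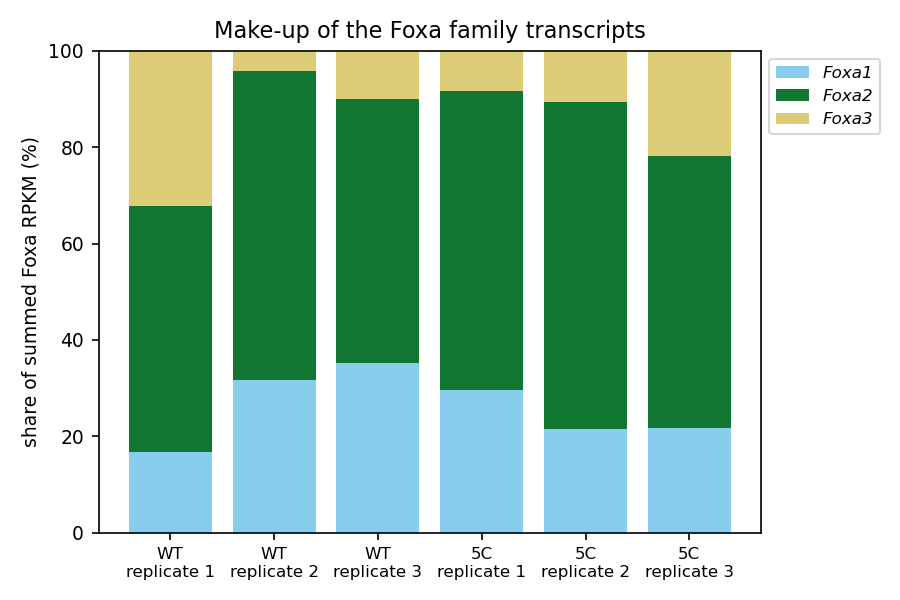
Share of each *Foxa* gene (%, stacked to 100) in the summed RPKM of the family, 1 bar per library and no error bars since each bar is 1 library. *Foxa2* is the largest segment in all 6 bars, and the *Foxa3* segment is widest in WT replicate 1 (32.1%) and 5C replicate 3 (21.9%).

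*Sox17* (ENSMUSG00000025902; chr1:4490931-4497354, minus strand) encodes a SOX factor that founds definitive endoderm and later marks arterial endothelium. It read 7.08, 7.90 and 6.86 CPM in the WT libraries against 8.0, 7.85 and 7.97 CPM in the 5C libraries. It was the steadiest member, with an SD of log2 CPM over the 6 libraries of 0.10, where the median over all tested genes was 0.16. Within 5C its coefficient of variation of 0.968% was below the 9.55% that counting alone would give. The log2 fold change was 0.12 (SE 0.14, 95% interval -0.19 to 0.43, adjusted p = 0.860, edgeR), or 0.08 to 0.19 with each library left out in turn. *Hhex* (ENSMUSG00000024986; chr19:37434810-37440731, plus strand), a homeobox gene of the ventral foregut, liver and thyroid primordia that is also active in endothelium, read 3.31, 3.43 and 5.42 CPM in the WT libraries against 2.97, 3.24 and 3.63 CPM in the 5C libraries. WT replicate 3, the shallowest library, was the highest on 34 counts, and the genotypes overlapped. Its log2 fold change was -0.26 (SE 0.23, 95% interval -0.78 to 0.27, adjusted p = 0.825, edgeR), and it was -0.05 without WT replicate 3.

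Of the factors of the liver bud itself, *Prox1* (ENSMUSG00000010175; chr1:190118035-190170714, minus strand) is needed for hepatoblasts to migrate out of the bud. It read 15.3, 12.6 and 16 CPM in the WT libraries against 13.1, 14.3 and 12.7 CPM in the 5C libraries. WT replicate 2 was the lowest of all 6 and the other WT libraries were the highest, so the WT values enclosed the 5C values, and the log2 fold change was -0.13 (SE 0.13, 95% interval -0.41 to 0.16, adjusted p = 0.845, edgeR), or -0.22 to -0.08 with each library left out in turn. *Onecut1* (ENSMUSG00000043013; chr9:74861921-74891781, plus strand), which encodes HNF6 and is the one member with a miR-483-3p seed match, read 3.10, 3.43 and 4.95 CPM in the WT libraries against 3.70, 3.93 and 2.71 CPM in the 5C libraries. WT replicate 3 was the highest and 5C replicate 3 the lowest, and in between both 5C libraries lay above both WT libraries, so the genotypes overlapped through the 2 extremes. The log2 fold change of *Onecut1* was -0.11 (SE 0.24, 95% interval -0.65 to 0.43, adjusted p = 0.938, edgeR), and it was 0.07 without WT replicate 3 and 0.04 without 5C replicate 3. Its level is uncertain because 2171 of its 4113 exon bases lie under *Gm20649* on the same strand, where reads may have been dropped from both genes.

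*Hnf4a* (ENSMUSG00000017950; chr2:163506808-163572910, plus strand), the nuclear receptor at the head of the hepatocyte programme, set the WT libraries farthest apart. It read 35.3, 2.32 and 4.47 CPM in the WT libraries against 2.06, 1.96 and 7.05 CPM in the 5C libraries, from 672, 27 and 28 counts and 34, 23 and 99 counts. WT replicate 1 was 10.4 times the mean of the other WT libraries and 5C replicate 3 was 3.50 times that of the other 5C libraries, while the remaining 4 lay between 1.96 and 4.47 CPM. The mean was 14 ± 18.4 CPM over WT libraries against 3.69 ± 2.91 CPM over 5C libraries (SD, n = 3 each), with SDs as large as the means or nearly so. The coefficients of variation were 131.5% and 78.8%, against 15.7% and 16.6% from counting alone. Its SD of log2 CPM over the libraries, 1.56, was larger than that of 99.6% of the genes tested, and that of *Foxa3*, 1.21, was larger than 99.3%.

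The *Hnf4a* log2 fold change was -2.0 (4.01-fold lower in 5C), with an SE of 0.88, a 95% interval of -3.98 to -0.02 and an adjusted p of 0.781 (unadjusted p of 0.0479) in edgeR's quasi-likelihood test. It rested on WT replicate 1, without which the value was 0.21 (adjusted p = 0.991, edgeR). Without WT replicate 1 and 5C replicate 3, it was -0.65 (adjusted p = 0.999, edgeR). Without a filter on low counts the same value of -2.0 was called (adjusted p = 7.3e-24, edgeR), the one alternative that did so. Leaving out the 2 libraries with few Y-linked counts gave -2.22 for *Hnf4a* (adjusted p = 0.837, edgeR) and -1.11 for *Foxa3* (adjusted p = 0.837, edgeR).

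**Figure D3:**
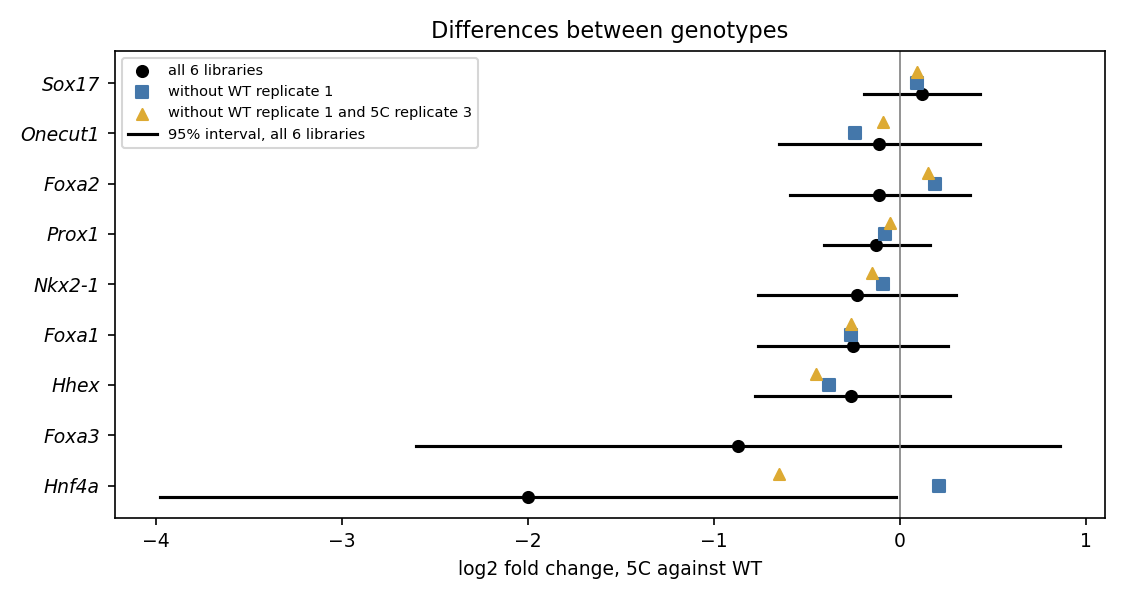
Log2 fold change of 5C against WT for 9 genes, as circles with 95% intervals from all 6 libraries, squares without WT replicate 1 and triangles without WT replicate 1 and 5C replicate 3. The *Hnf4a* point moves from -2.0 to 0.21 and to -0.65, *Foxa3* could not be tested in the reduced sets, and the intervals of the other 7 genes span 0.

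The last pair marks other foregut derivatives. *Nkx2-1* (ENSMUSG00000001496; chr12:56531958-56536908, minus strand), the homeobox gene of the thyroid and lung buds and of the ventral forebrain, read 2.41, 1.72 and 2.23 CPM in the WT libraries against 1.88, 1.54 and 1.99 CPM in the 5C libraries. The ranges overlapped, the spread within each genotype was no larger than counting alone would give, and the log2 fold change was -0.23 (SE 0.24, 95% interval -0.76 to 0.30, adjusted p = 0.845, edgeR), or -0.37 without WT replicate 2 and -0.09 without WT replicate 1. *Pdx1* (ENSMUSG00000029644; chr5:147269959-147275848, plus strand), the homeobox gene of the pancreatic buds and duodenum, had 2, 0 and 0 counts in WT and 1, 1 and 1 in 5C. Every library lay at or below its floor of 3 counts, so no difference was detectable at this depth and no fold is given. Both pancreatic buds are small at this stage, and *Pdx1* was the only member left untested.

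Levels were ordered per exon length, as mean RPKM over the 6 libraries. *Foxa2* came first at 2.79 ± 0.589 (SD, n = 6), and its lowest library, 2.15, was above the highest *Prox1* library, 1.90. *Hnf4a* was next by its mean of 1.83 ± 2.71, but this order held for no typical library: it had rank 1 in WT replicate 1 at 7.30, rank 4 in 5C replicate 3 at 1.46 and rank 7 or 8 in the rest. *Prox1* (1.67 ± 0.167) and *Sox17* (1.60 ± 0.105) did not differ beyond their spread, and both lay above *Foxa1* (1.19 ± 0.230), whose highest library reached 1.39 against a lowest of 1.44 for *Sox17*. *Onecut1* (0.884 ± 0.188), *Foxa3* (0.811 ± 0.854), *Hhex* (0.725 ± 0.176) and *Nkx2-1* (0.690 ± 0.114) overlapped one another, and *Pdx1* was last in all 6 libraries at up to 0.0486. Exon length matters for 2 of them, since with the longest coding transcript the *Hhex* mean was 2.04 and the *Sox17* mean 2.35, which gave them ranks 3 and 2.

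The spread of *Hnf4a* and *Foxa3* was set beside that of the other regulators. The ratio of WT replicate 1 to the mean of the other WT libraries was 10.4 for *Hnf4a* and 8.64 for *Foxa3*, and between 0.739 (*Onecut1*) and 1.63 (*Foxa2*) for the other 7 tested members. In 5C replicate 3 the same ratio was 3.50 and 2.93 for the pair and between 0.710 and 1.17 for the 7. The summed hepatoblast products gave 15 and 5.50, and the yolk sac markers 7.52 and 2.72. *Lrp2*, at 244.7, 80.1 and 94.1 CPM in the WT libraries, was the largest part of the yolk sac sum in WT replicates 2 and 3. *Cubn*, of the same list, read 503.4, 9.70 and 28.7 CPM there. The ratios of the sums thus do not rank the 2 lists by strength. Summed hepatic regulators gave 1.37 and 1.03, those of the gut and foregut 0.995 and 1.03, and those of the pancreas 1.03 and 1.0. These regulator sums are led by abundant genes, such as *Sox2* of the gut list, which is also a neural gene. They therefore do not measure endoderm alone. By gene, WT replicate 1 was the highest library for 9 of 13 hepatic, 6 of 12 gut and foregut and 1 of 12 pancreatic regulators. The share of all genes highest in that library was not counted, so these counts have no background. *Hnf4a* and *Foxa3* thus moved with the 2 lists of endoderm products, and no other tested member exceeded 1.63 in either library. The part of yolk sac or liver tissue in the *Hnf4a* and *Foxa3* values was not tested.

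**Figure D4:**
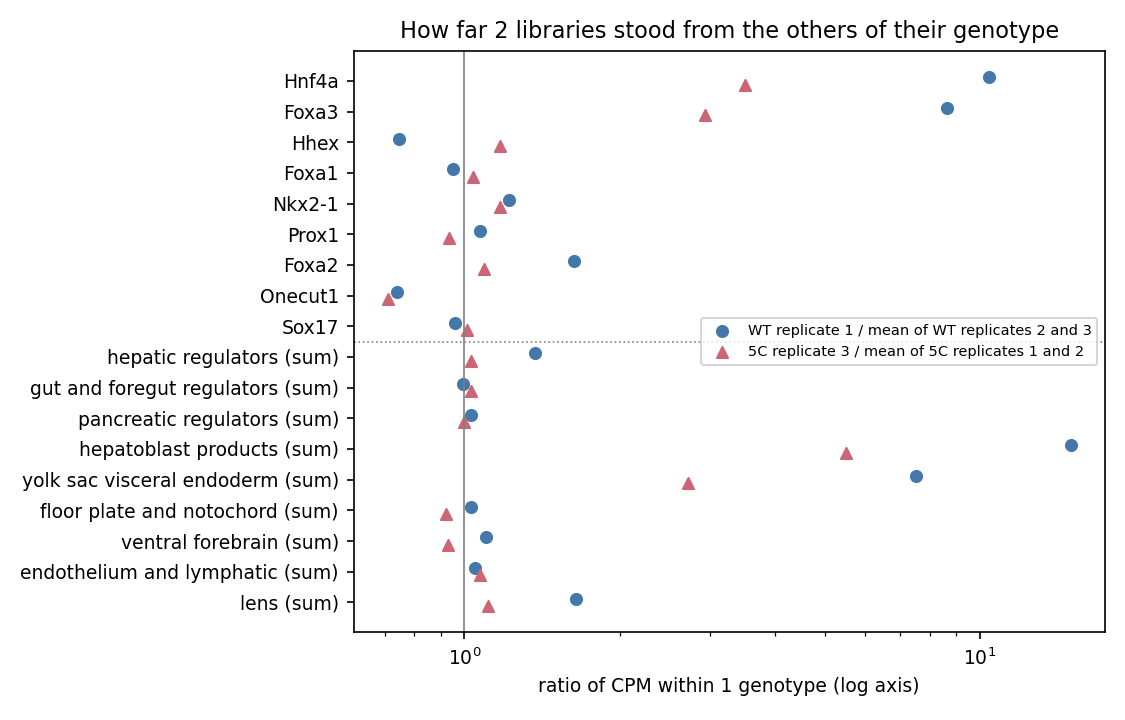
Ratio of 1 library to the mean of the other 2 of its genotype (CPM over CPM, log axis) for 9 genes and for the summed CPM of 9 gene lists, as circles for WT replicate 1 and triangles for 5C replicate 3; the vertical line marks equal levels. *Hnf4a*, *Foxa3*, the hepatoblast products and the yolk sac markers lie to the right with ratios of 2.72 to 15, and the rest lie between 0.710 and 1.65.

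The genes most like *Hnf4a* over the 6 libraries, by Pearson's r of log2 CPM among all tested genes, were *Trf* (0.9987), *Klb* (0.9982), *Cebpb* (0.9979), *Fcgrt* (0.9963) and *Creb3l3* (0.9960). These r values describe 6 points that share their library depth, and carry no test. *Trf*, which encodes transferrin and is one of the hepatoblast products, read 494.0, 24.7 and 45.6 CPM in the WT libraries against 23.1, 20.6 and 90.4 CPM in the 5C libraries, the same order of libraries as for *Hnf4a*. Among 16783 other genes, *Foxa3* ranked 264 in likeness to *Hnf4a* (r = 0.918), ahead of *Nkx2-1* at 604 (r = 0.821) and *Foxa2* at 852 (r = 0.763), while *Prox1*, *Foxa1*, *Hhex*, *Onecut1* and *Sox17* had r between -0.571 and 0.442. The genes most like *Sox17* were *2810405F17Rik* (0.9984), *Appl2* (0.9983), *Osgin2* (0.9937), *Wwc1* (0.9922) and *4930471M09Rik* (0.9912). The spread of *Sox17* within each genotype was below counting error, so these may be matches to noise. *4930471M09Rik* read only 0.319 to 1.09 CPM.

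The wider regulatory network was described with lists of other genes. Of 13 further hepatic regulators 8 were tested, all 8 had values below 0 (median log2 fold change -0.39), 0 were called and 1 had an unadjusted p under 0.05. That gene, *Creb3l3*, a transcription factor of liver lipid metabolism, read 13.1, 0.515 and 1.28 CPM in the WT libraries against 0.303, 0.427 and 1.92 CPM in the 5C libraries, which is the pattern of *Hnf4a* again (log2 fold change -2.63, SE 1.04, adjusted p = 0.781, edgeR). *Nr5a2* had a value of -0.52 and *Gata6*, an endoderm GATA factor, of -0.26, neither past the test. Without WT replicate 1 and 5C replicate 3 these values were -0.22 and -0.28. Without WT replicate 1 the 8 hepatic regulators split into 3 below and 5 above 0 (median 0.02). Without WT replicate 1 and 5C replicate 3, 7 were testable, with 4 below and 3 above 0 (median -0.11).

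The products of the programme told the libraries apart in the same way. Of 15 hepatoblast products 13 were tested, all 13 had values below 0 (median -1.96), and 0 were called or had an unadjusted p under 0.05. *Afp*, the fetal serum protein, read 3091.2, 107.2 and 226.5 CPM in the WT libraries against 84.8, 87.3 and 632.5 CPM in the 5C libraries. *Alb*, which rises as hepatoblasts mature, read 10.49, 3.35 and 7.98 CPM in the WT libraries against 5.45, 5.55 and 5.13 CPM in the 5C libraries. The ratio of WT replicate 1 to the other WT libraries was thus 18.5 for *Afp* and 1.85 for *Alb*, and that of 5C replicate 3 to the other 5C libraries was 7.35 and 0.932. *F2* (-2.11), *Trf* (-2.10) and *Serpinf2* (-1.29) had the smallest p-values, with an adjusted p of 0.781 each (edgeR). Without WT replicate 1 and 5C replicate 3 these values were -1.52, -0.65 and -0.30. Of 13 yolk sac markers 12 were tested, all 12 had values below 0 (median -2.16), 3 had an unadjusted p under 0.05 (*Lrp2*, *Vil1* and *Amn*, at -0.92, -2.66 and -2.33) and 0 were called. Without WT replicate 1 and 5C replicate 3, *Lrp2* was at -0.41, and *Vil1* and *Amn* could not be tested. Without WT replicate 1 the directions turned, to 1 below and 12 above 0 for hepatoblast products (median 0.66) and to 1 below and 10 above for yolk sac markers (median 0.61). Without both outlying libraries, 12 of 13 hepatoblast products (median -0.65) and 5 of 7 yolk sac markers (median -1.35) were below 0, with 8 and 5 lower at an unadjusted p under 0.05 and 0 called. In those 4 libraries 2.69% of all genes were lower at that p. This set of libraries was chosen after the data were seen, and fewer yolk sac markers could be tested in it. Many genes of these lists also rise and fall together, so their counts are not independent and do not measure an excess over that share.

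Regulators of other gut derivatives varied less between libraries. Of 12 gut and foregut regulators 11 were tested, 8 below and 3 above 0 (median -0.07), 0 were called, and the genotypes did not overlap for 2 of 11, against 11.4% of all genes. *Foxe1*, a forkhead gene of the thyroid and palate, read 1.94, 1.37 and 1.75 CPM in the WT libraries against 1.03, 0.768 and 0.925 CPM in the 5C libraries on 9 to 37 counts (log2 fold change -0.89, SE 0.27, adjusted p = 0.781, edgeR). *Sox2*, a gene of the anterior foregut and, at higher level, of the neural tube, read 74.2, 84.9 and 75.1 CPM in the WT libraries against 89.4, 92.6 and 95.9 CPM in the 5C libraries (log2 fold change 0.25, SE 0.08, adjusted p = 0.781, edgeR). *Cdx2*, of the hindgut, had a value of -0.78 (SE 0.48). Of 12 pancreatic regulators 11 were tested, 2 below and 9 above 0 (median 0.14), with *Neurod1* (0.28), *Pax6* (0.16) and *Isl1* (0.14), which are all also neuronal genes, at the smallest p-values and 0 called. The genotypes did not overlap for 3 of these 11 and for 1 of the 8 hepatic regulators.

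The tissues that share members with the endoderm were checked by their markers. Floor plate and notochord genes, which accompany *Foxa1* and *Foxa2*, summed to between 199.5 and 220.8 CPM over the 6 libraries, with 6 below and 5 above 0 among 11 tested. Ventral forebrain genes, which accompany *Nkx2-1*, summed to between 58.8 and 71.7 CPM (3 below and 7 above 0). Endothelial and lymphatic genes, which accompany *Sox17*, *Hhex* and *Prox1*, summed to between 388.4 and 432.8 CPM (5 below and 5 above 0). Lens genes, which accompany *Prox1*, summed to between 16.6 and 28.6 CPM, highest in WT replicate 1, with 2 of 7 tested and both below 0. That sum was led by *Maf* (22.4 CPM in WT replicate 1) and *Cryab*. The untested lens genes had at most 7 counts in any library, so the sum says little about lens. Among the genes with the smallest p in these lists were *Lhx2* (log2 fold change 0.27), *Tek* (-0.17) and *Maf* (-0.37), with an adjusted p of 0.781 each in edgeR's quasi-likelihood test, and 0 genes of these 4 lists were called. Without WT replicate 1 and 5C replicate 3 these 3 values were 0.39, -0.31 and -0.01. The genotypes did not overlap for 2 of 11 floor plate and notochord, 2 of 10 ventral forebrain, 1 of 10 endothelial and 0 of 2 lens genes. The sums are led by their abundant genes, and *Lyve1*, a lymphatic marker, read 9.29, 1.37 and 1.75 CPM in the WT libraries against 1.58, 2.13 and 2.99 CPM in the 5C libraries. How much of the RNA of *Foxa2*, *Nkx2-1*, *Sox17* and *Prox1* came from endoderm was not tested.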

How the data were processed

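The authors made poly(A)-selected stranded libraries (TruSeq), sequenced them as single-end reads, aligned them with STAR to GRCm38 (Ensembl) and deposited raw read counts per gene, whole numbers without normalization. Which strand column was counted is not given in the sources used here, so reads antisense to *Prox1* and *Sox17* cannot be told apart from theirs. Groups came from sample titles. All 6 count columns were used.

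Genes were kept by filterByExpr, scaled by TMM and tested with edgeR 4.0.16 (R 4.3.3; quasi-likelihood F-test, legacy form, two-sided, Benjamini-Hochberg over all 16784 genes). SE is the log2 fold change divided by the square root of F. Positions, exon lengths and 3′ UTRs came from GENCODE, which held 55141 of 55401 identifiers. Alternatives used DESeq2 1.42.0, limma 3.58.1 and other settings.

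Members and lists were chosen with earlier results of these data known. Beside the 10 members, the rule named *Mir483*, *Igf2*, up to 3 genes with the smallest p per list, and the 5 genes most like the most and least variable member. *Igf2* had 322, 98 and 107 counts in WT and 173, 118 and 137 in 5C (log2 fold change -0.48, adjusted p = 0.781, edgeR). The study reported *Igf2* as lower in these embryos by RNA-seq, and in independent embryos by RT-qPCR and western blot. Some genes that this rule names are not reported here. Other genes were named after their values were seen. Pools of 2 embryos were the replicates.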

Additional observations from a re-analysis of the deposited data

How the results depend on the processing

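Of 167 member values over 19 alternatives, 161 kept their direction and side of the threshold, and 5 reversed: *Hnf4a* without WT replicate 1 (0.21), *Foxa2* without WT replicate 1 (0.19) and without WT replicate 1 and 5C replicate 3 (0.15), and *Onecut1* without 5C replicate 3 (0.04) or WT replicate 3 (0.07). Without a count filter, *Hnf4a* was called at the same value of -2.0 (adjusted p = 7.3e-24, edgeR), 1 member DEG in place of 0, with 2 members at an unadjusted p under 0.05, 319 DEGs among all genes, 2170 genes at that p, 26 DEGs in the other lists and 40 list genes at that p; the cause was not tested. Other counts of DEGs, 0 in the main test, were 11 with DESeq2, 3 with robust moderation, 2 without WT replicate 1 and 5C replicate 3, and 0 to 1 with each library left out. Genes at an unadjusted p under 0.05, 1011 in the main test, numbered 554 with a GC offset and block and 456 to 1803 with each library left out. The 1 member at that p became 0 with DESeq2, limma-voom, robust moderation, a GC offset, the replicate block, both together, and without WT replicate 1 and 5C replicate 3, and 0 to 1 with each library left out. In the other lists 9 genes reached that p, against 2 with DESeq2, 4 with limma-voom, 4 with at least 10 counts in every library, 4 with the block, 17 without WT replicate 1 and 5C replicate 3, and 2 to 37 with each library left out. The member median was -0.26 to -0.08 with each library left out (-0.08 without WT replicate 1) and the *Hnf4a* value was -2.87 to 0.21. Without both libraries numbered 2 the median was -0.27. Lengths from the longest coding transcript moved the RPKM of *Hhex* to 2.04 and of *Sox17* to 2.35. Equal replicate numbers did not pair the libraries (correlations of deviations -0.174, 0.202 and -0.166). The correlation was 0.307 for WT replicate 1 with 5C replicate 3 and 0.194 for WT replicate 3 with 5C replicate 1. No label gives that pairing, and it was not fitted. The replicate block below uses equal numbers. With the replicate block, 0 DEGs and 782 genes at an unadjusted p under 0.05 were found, *Hnf4a* was -1.42 (adjusted p = 0.888, edgeR) and *Foxa3* -0.60. *Foxa3* could not be tested with at least 10 counts in every library. The 3 pools a genotype and counts of 4 to 94 for *Foxa3* limit what could be detected.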
